A study of Mus musculus with 6 samples.

Results

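The genes described are the 29 mouse genes whose symbol begins with Srsf (10 genes) or Hnrnp (19 genes) among the 18193 genes that an Affymetrix 3' expression array names unambiguously. A probe set, a group of short probes for 1 transcript, was counted only where the platform annotation gives it exactly 1 symbol, which left 91 Srsf and Hnrnp probe sets, and 7 others that list such a symbol beside further genes were not used. RNA came from livers of C57BL/6 mice given an AAV8 vector expressing Nfkbiz (3 samples) or an AAV8 vector expressing luciferase (3 samples), with 1 array per liver sample. Both vectors were injected intravenously 4 weeks before a CDAHFD challenge (a high-fat diet that lacks choline, with defined amino acids) of 4 weeks, so the control livers carry a vector and a fatty liver diet too. AAV8 is an adeno-associated virus serotype used to reach the mouse liver. The mice were perfused with PBS and the tissue was whole, so all liver cell types contribute RNA. The labels name neither the vector's promoter nor the age or sex of the mice.

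SR proteins and hnRNPs are the principal RNA-binding proteins that steer the choice of splice sites. SR proteins pair RNA recognition motifs with a domain rich in arginine-serine repeats, bind exonic enhancers and recruit the U1 and U2 machinery, and kinases of the SRPK and CLK families phosphorylate them. hnRNPs coat nascent transcripts, often act as silencers of nearby exons, and many also serve in mRNA export, stability and translation. Several SR and hnRNP genes limit their own output by splicing in exons that send the transcript to nonsense-mediated decay.

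The question for these genes was whether their transcript levels were shifted by the Nfkbiz vector under the same diet. Values are MAS5 intensities, the authors' signal for each probe set on a linear scale, and each difference is the Nfkbiz mean minus the luciferase mean of log2 values, with limma's moderated standard error (SE). The third luciferase array stood apart from the other 5 on the second principal component of all genes tested, at -45.1 against values between 3.11 and 21.1. Of the 29 genes 28 passed a filter on low intensity and were tested, and Srsf12, at 5.05, 20.1 and 2.12 in Nfkbiz livers against 16, 7.63 and 22.8 in luciferase livers, did not pass it. The other probe sets below the filter were 2 of Srsf11 and 1 each of Hnrnpr, Hnrnpc and Hnrnpd, whose remaining probe sets were tested. None of the 28 passed limma's test at an adjusted p of 0.05, where 0.225% of the 13312 genes tested (30 genes) did. At an unadjusted p below 0.05 there were 2, Srsf4 and Hnrnpul2, both with lower values in the Nfkbiz livers, which is 7.14% of 28 against 12.0% of all genes in either direction and 7.00% in the lower one. The groups did not overlap for 3 of the 28, Srsf4, Srsf3 and Hnrnph3, or 10.7% against 18.0% of all genes. The share without overlap lies below that of the whole table, and that at an unadjusted p below 0.05 lies close to the table's in the lower direction.

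The bases just before the starts of the 3 genes without overlap are shown, and these genes were picked by that rule alone. Hnrnpul2, whose groups overlapped, had a smaller limma unadjusted p (0.0287) than Hnrnph3 (0.0627) or Srsf3 (0.0938). The stretches end at the base before the first annotated start of each gene (RefSeq, GRCm38.p6), read 5′ to 3′ on the gene's strand. Capitals mark GGGCGG (the GC box bound by Sp1), CCAAT (the CCAAT box) and TATAAA (the TATA box), each searched on both strands, so that CCGCCC and ATTGG are the same boxes on the other strand.
Srsf4, chr4:131873387-131873529, plus strand: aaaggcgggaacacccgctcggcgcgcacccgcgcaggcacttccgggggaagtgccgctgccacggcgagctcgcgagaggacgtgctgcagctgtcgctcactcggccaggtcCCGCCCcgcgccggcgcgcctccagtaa
Hnrnph3, chr10:63023981-63024099, minus strand: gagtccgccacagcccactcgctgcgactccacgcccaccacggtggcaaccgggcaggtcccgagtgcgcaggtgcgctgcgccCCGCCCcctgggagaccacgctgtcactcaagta
Srsf3, chr17:29032410-29032659, plus strand: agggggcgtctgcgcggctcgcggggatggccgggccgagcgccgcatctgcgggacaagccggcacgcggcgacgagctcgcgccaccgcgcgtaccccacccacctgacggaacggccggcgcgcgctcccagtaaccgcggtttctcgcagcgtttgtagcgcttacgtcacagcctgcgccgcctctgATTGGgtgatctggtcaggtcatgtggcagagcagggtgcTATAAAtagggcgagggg

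The Srsf4 and Hnrnph3 stretches each held 1 GC box and neither of the other motifs, while the Srsf3 stretch held 1 CCAAT box and 1 TATA box and no GC box. Srsf4 has 3 annotated promoter windows, of which the most upstream is shown, and Hnrnph3 and Srsf3 have 1 each. Promoter windows of 300 bases were found for 27 of the 29 genes, 39 windows in all. Their median GC content was 68.3% (range 48.3% to 79.7%) against 52.7% over all 32851 windows of the table, and they held a median of 31 CG dinucleotides against 7. The GC box was in 82.1% of the 39 windows and 35.7% of all windows, the CCAAT box in 51.3% and 37.4%, and the TATA box in 10.3% and 13.6%. CACGTG, the E-box bound by CLOCK-BMAL1, was in 10.3% and 7.15%, and the NF-κB consensus in 7.69% and 8.46%. A match is only a match of letters. The CG-rich windows set these genes apart from the average promoter in the table as a description of sequence, and no binding was measured here.

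Among the 9 SR protein genes tested, 5 had a positive and 4 a negative difference (47.8% of all genes had a positive one), with a median of 0.03, against a median of -0.02 over all genes tested. None passed the threshold. Differences ran from -0.61 for Srsf4 to 0.29 for Srsf10, and the 95% interval lay within -0.5 to 0.5 for 5 of the 9, against 24.7% of all genes.

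Srsf4, also known as SRp75, one of the longest SR proteins, had the smallest p of all 28 genes. It was read at 1312, 1204 and 1151 in the Nfkbiz livers, against 1850, 2101 and 1646 in the luciferase livers. Every Nfkbiz array was below every luciferase array. Means were 1222 ± 82.3 in Nfkbiz and 1865 ± 228 in luciferase livers (SD, n = 3 each). The log2 difference was -0.61 ± 0.14 (SE, 95% interval -0.91 to -0.30), a fold of 0.657, and its limma adjusted p over all genes was 0.152 (unadjusted 0.00129). Srsf4 is read by 1 probe set, so no other probe set on the array bears on it. Across the 20 settings run its difference stayed between -0.69 and -0.52, with limma adjusted p from 0.0694 to 0.395.

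Srsf3, the smallest SR protein and also an mRNA export adaptor, was the 1 member whose brightest probe set had higher values in all Nfkbiz livers. Its arrays read 2373, 2288 and 2367 in Nfkbiz, against 2152, 2099.8 and 1729 in luciferase livers. The Nfkbiz arrays lay close together and the third luciferase array well below the other luciferase arrays. The log2 difference was 0.24 ± 0.13 (SE, limma adjusted p = 0.5), and 0.14 without the third luciferase array.

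Srsf10, a splicing factor that acts as a repressor when dephosphorylated after heat shock, was read at 739, 846 and 706 in Nfkbiz livers, against 752, 749 and 432 in luciferase livers. The difference of 0.29 ± 0.22 (SE, limma adjusted p = 0.639) came with 2 luciferase arrays inside the Nfkbiz range and the third far below it, and without that array it was 0.02. Srsf5, whose transcript is known from rat as insulin-induced in liver cells, was read at 7997, 4670 and 3914 in Nfkbiz livers, against 5269, 5341 and 3193 in luciferase livers. Its groups overlapped widely, with the highest and the second lowest value of the 6 both in Nfkbiz livers, and the difference of 0.23 ± 0.27 (SE, limma adjusted p = 0.776) was -0.07 without the first Nfkbiz array and -0.01 without the third luciferase array.

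The remaining SR protein genes differed little. Srsf9 had a difference of 0.08 ± 0.13 (SE), and Srsf2 (SC35), a general SR factor concentrated in nuclear speckles, of 0.03 ± 0.15. Without the third luciferase array these were -0.02 for Srsf9 and -0.12 for Srsf2, and those of the next 3 genes -0.05 for Srsf6, -0.08 for Srsf11 and -0.07 for Srsf1. Srsf6 had a difference of -0.01 ± 0.16, Srsf11 of -0.01 ± 0.14 and Srsf1 (SF2/ASF), the founding member of the family, of -0.05 ± 0.12. Limma adjusted p for these 5 genes ran from 0.848 to 0.987, and all 5 of their 95% intervals lay within -0.5 to 0.5. For Srsf1 the interval was -0.32 to 0.22, so a change larger than that in either direction lies outside it. Srsf1 was read at 2815, 2977 and 3364 in Nfkbiz livers and at 3267, 3134 and 3065 in luciferase livers, with the highest and the lowest values both among the Nfkbiz arrays.

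**Figure D1:**
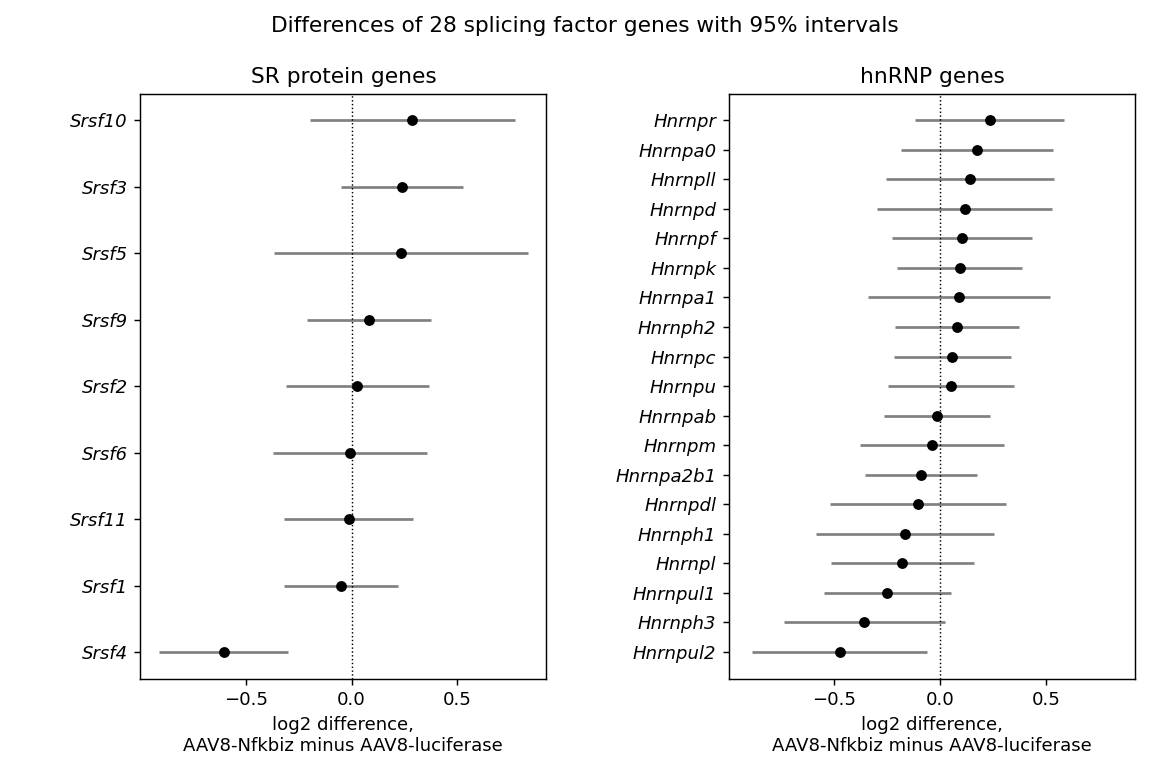
Log2 difference (x axis, AAV8-Nfkbiz minus AAV8-luciferase) of each tested SR protein gene (left panel) and hnRNP gene (right panel), 3 arrays per group, with limma's 95% interval as a line. The intervals of Srsf4 and Hnrnpul2 lie below 0 and those of the other 26 genes cross it, and none of the 28 genes passed after adjustment over 13312 genes.

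Among the 19 hnRNP genes, 10 had a positive and 9 a negative difference, with a median of 0.05. None passed the threshold, and 1 reached an unadjusted p below 0.05 (5.26%, against 12.0% of all genes). Differences ran from -0.48 for Hnrnpul2 to 0.23 for Hnrnpr. The 95% interval lay within -1 to 1 for all 19, against 73.2% of all genes. It lay within -0.5 to 0.5 for 8 (42.1%, against 24.7% of all genes).

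The genes of the hnRNP U-like proteins had negative differences. Hnrnpul2 was read at 835, 674 and 1121 in Nfkbiz livers, against 1277, 1087 and 1220 in luciferase livers. The third Nfkbiz array lay within the luciferase range and the other Nfkbiz arrays below it. The difference was -0.48 ± 0.19 (SE, limma adjusted p = 0.348), and another probe set of the gene gave -0.28 ± 0.17. Over the 20 settings it ran from -0.54 to -0.26, with an unadjusted p below 0.05 in 15. Hnrnpul1, which takes part in the DNA damage response, was read at 1168, 1171 and 1353 in Nfkbiz livers, against 1309, 1537 and 1545 in luciferase livers, a difference of -0.25 ± 0.14 (SE, limma adjusted p = 0.5). Hnrnpu itself, the scaffold attachment factor that ties chromatin to RNA, was read at 5710, 4631 and 4784 in Nfkbiz livers, against 5215, 5071 and 4304 in luciferase livers, with a difference of 0.05 ± 0.13 (-0.03 without the third luciferase array) and overlapping groups.

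The H/F group, whose proteins bind runs of guanines, did not share a direction. Hnrnph3 was read at 407, 380.2 and 394 in Nfkbiz livers, against 496, 604 and 429 in luciferase livers. All Nfkbiz arrays were lower, and the spread was much smaller among them (SD 13.6 in Nfkbiz and 88.0 in luciferase livers, n = 3 each). The difference was -0.36 ± 0.17 (SE, limma adjusted p = 0.442). Hnrnph1 was read at 2117, 2044 and 2311 in Nfkbiz livers, against 3019.9, 2668 and 1755 in luciferase livers, where the third luciferase array was below all others and the remaining luciferase arrays above them. Its difference was -0.17 ± 0.19 with all arrays and -0.40 without the third luciferase array. Hnrnph2 had a difference of 0.08 ± 0.13, and Hnrnpf, at 8899, 7309 and 8594 in Nfkbiz livers against 6904, 7018 and 9319 in luciferase livers, one of 0.10 ± 0.15 (0.24 without the third luciferase array). The third luciferase array was the highest of the 6 for Hnrnpf and the lowest for Hnrnph1.

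The A/B group, which includes the classical splicing repressors, also stayed near 0 on the brightest probe set of each gene. Hnrnpa2b1, also known as a reader of sorting motifs in RNA, was read at 6531, 6543 and 7381 in Nfkbiz livers, against 7463, 6687 and 7606 in luciferase livers (difference -0.09 ± 0.12 SE, 95% interval -0.35 to 0.18). Hnrnpab was read at 10733, 10427 and 10737 in Nfkbiz livers and at 10593, 10217 and 11448 in luciferase livers, a difference of -0.01 ± 0.11 (0.03 without the third luciferase array). On these probe sets the groups interleaved for both genes. Of the 4 Hnrnpa2b1 probe sets, 2 had positive differences and were higher on every Nfkbiz than on any luciferase array. These were 1433829_a_at (0.29 ± 0.14 SE, limma adjusted p = 0.486) and 1434047_x_at (0.23 ± 0.12 SE, limma adjusted p = 0.55). Groups did not overlap for 8 of the 85 member probe sets tested (9.41%, against 16.7% of all probe sets). Hnrnpa0 was read at 1975, 1628 and 1925 in Nfkbiz livers, against 1832, 1797 and 1308 in luciferase livers, a difference of 0.17 ± 0.16 that was 0.02 without the third luciferase array. Hnrnpa1, the best known antagonist of SRSF1 at splice sites, had a difference of 0.09 ± 0.19, with 997 on the third luciferase array and between 1368 and 1659 on the other 5. Without the third luciferase array its difference was -0.15.

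Among the others, Hnrnpr, a relative of the gene of hnRNP Q, was read at 1808, 1263 and 1756 in Nfkbiz livers, against 1398, 1298 and 1359 in luciferase livers. The second Nfkbiz array was the lowest of all 6 and the other Nfkbiz arrays the highest, and the difference was 0.23 ± 0.16 (SE, limma adjusted p = 0.588). Hnrnpl, which binds CA repeats, was read at 1121, 1240 and 1162 in Nfkbiz livers, against 1304, 1131 and 1586 in luciferase livers (-0.18 ± 0.15, and -0.05 without the third luciferase array). Its paralog Hnrnpll, known for CD45 exon skipping in lymphocytes, was read at 1569, 1622 and 1427 in Nfkbiz livers, against 1517, 1694 and 1053 in luciferase livers (0.14 ± 0.18, and -0.06 without the third luciferase array). The paralogs' differences had opposite signs with all arrays and the same sign without the third luciferase array.

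Hnrnpk, which binds runs of cytosines, was read at 11939, 10705 and 12327 in Nfkbiz livers, against 9899, 10414 and 12611 in luciferase livers (0.09 ± 0.13, and 0.20 without the third luciferase array). Hnrnpc, which measures nascent transcripts and binds runs of uridines, was read at 7244, 7319 and 6467 in Nfkbiz livers, against 6264, 6426 and 7547 in luciferase livers (0.06 ± 0.13, and 0.14 without that array). For both genes the highest value of the 6 was on the third luciferase array. Hnrnpd, the AU-rich element binding factor AUF1, had a difference of 0.12 ± 0.19, its relative Hnrnpdl of -0.10 ± 0.19 and Hnrnpm of -0.04 ± 0.15, with limma adjusted p of 0.845, 0.863 and 0.947. Without the third luciferase array the differences were 0.19 for Hnrnpd, -0.29 for Hnrnpdl and -0.17 for Hnrnpm.

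**Figure D2:**
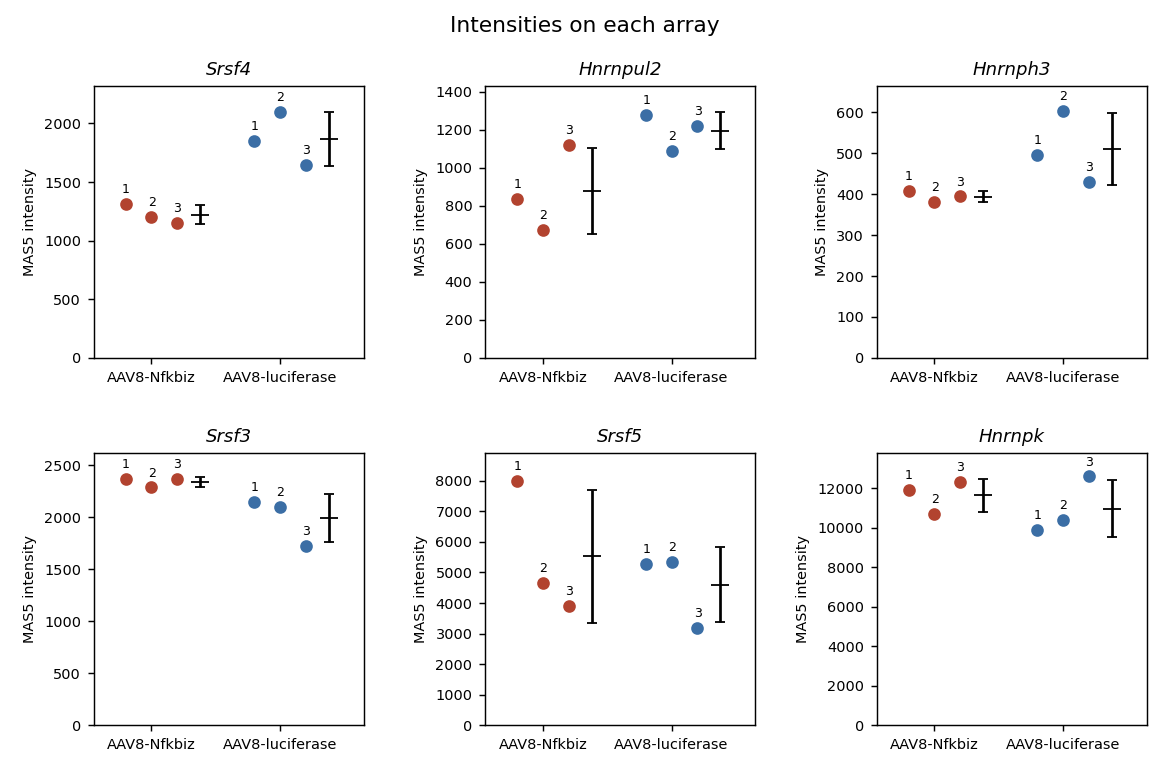
MAS5 intensity (y axis from 0) of 6 genes on each array, AAV8-Nfkbiz left and AAV8-luciferase right, with replicate numbers beside the points and the mean ± SD (n = 3) as a bar. Srsf4 and Hnrnph3 are lower and Srsf3 is higher on every Nfkbiz array than on any luciferase array, and the other 3 genes overlap.

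The splicing factor genes varied less among arrays than the median gene. The pooled within-group SD had a median of 0.19 on the log2 scale over the 28 genes against 0.25 over all genes tested. The median absolute difference between the vectors was 0.10 against 0.20, and the 95% interval lay within -0.5 to 0.5 for 46.4% of the 28 genes against 24.7% of all genes. Related lists described below had like shares: 52.6% for hnRNPs under other symbols, 47.1% for other splicing regulators and 43.8% for core spliceosome genes. Shares were 36.4% for SR protein kinases and import, 21.7% for SR-related proteins and 11.1% for nonsense-mediated decay genes. The comparison with all genes was not matched on intensity.

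One array stood out for many of these genes. The third luciferase array held the lowest value of 13 of the 28 genes (46.4%), against 21.1% of all genes. It also held the highest value of 7 of them (25%, against 18.3% of all genes). The median deviation of the SR protein genes from their mean over 6 arrays was -0.24 on this array and between -0.04 and 0.12 on the others, whereas the median of all genes on it was -0.00073. For the hnRNP genes the median on it was -0.05, and the lowest was -0.12, on the second Nfkbiz array. Srsf10, Srsf5, Hnrnpa1, Hnrnpll and Hnrnpa0 were more than 0.4 below their means there, and Hnrnpl, Hnrnpul2, Hnrnpf and Hnrnpul1 more than 0.2 above. Without that array the median difference was -0.05 for the SR protein genes and -0.05 for the hnRNP genes, both with the sign turned. Over all genes it was -0.04. In that setting 4 of the 28 genes reached an unadjusted p below 0.05, and none passed after adjustment. The share of all genes at that cut was not counted in that setting, and was 12.0% with all arrays.

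**Figure D3:**
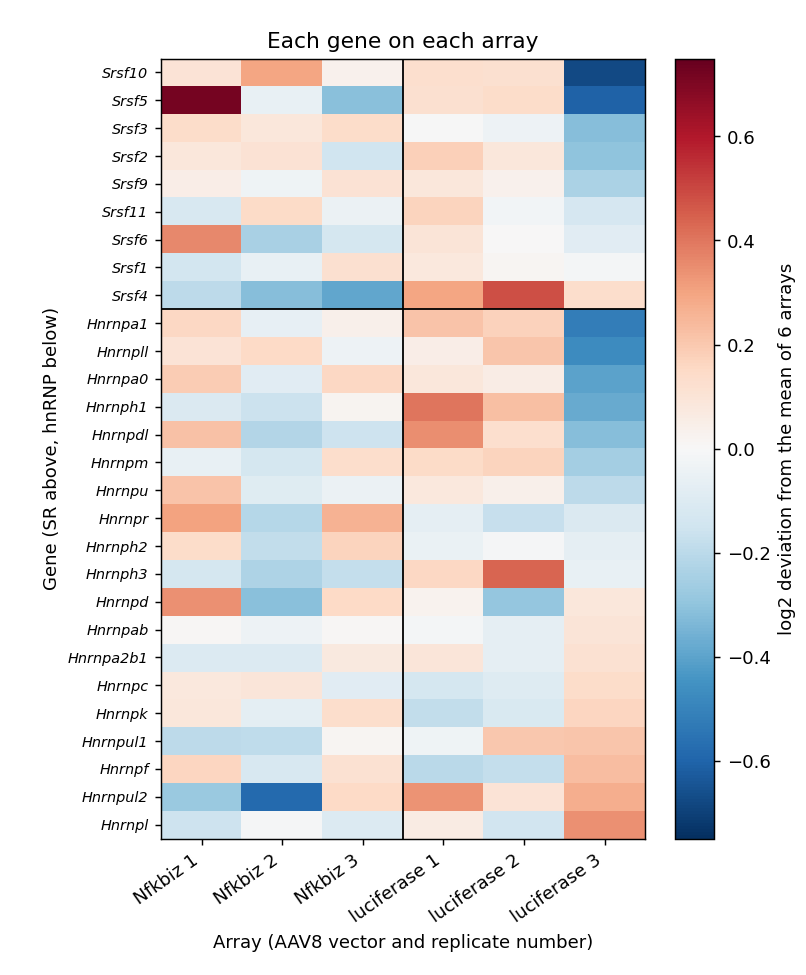
Log2 deviation (colour) of each tested gene (rows, SR protein genes above the line, hnRNP genes below) from its mean over the 6 arrays (columns, AAV8-Nfkbiz left of the line). The third luciferase array holds the lowest value of 13 of the 28 genes, and Srsf4 is blue on all Nfkbiz and red on all luciferase arrays.

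Different probe sets of 1 gene can read different parts of its transcripts, and 20 of the 28 genes had more than 1 probe set above the filter. At the level of probe sets 85 of the 91 were tested and none passed limma's test over 27022 probe sets, where 0.0703% did. At an unadjusted p below 0.05 there were 7 (8.24%, against 10.6% of all probe sets), 6 of them with lower values in Nfkbiz livers, where 6.47% of all probe sets fell in that class, and 1 with higher, where 4.14% did. The probe sets of 12 of the 20 genes had differences of both signs, and in no gene did probe sets of opposite sign each reach an unadjusted p below 0.05.

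Srsf3 showed the widest split among the SR genes. Its representative probe set 1416150_a_at had a difference of 0.24, and 1416152_a_at, at 565, 547 and 662 in Nfkbiz livers against 499.8, 481 and 477 in luciferase livers, one of 0.28 ± 0.16. A further one, 1438215_at, went the other way, at 98.9, 89.0 and 73.7 in Nfkbiz livers against 175, 169 and 117 in luciferase livers, a difference of -0.80 ± 0.30 (SE, limma adjusted p = 0.398). Groups did not overlap for any of these 3 probe sets, among 8 of the 85 (9.41%, against 16.7% of all probe sets). Taken as a ratio to 1416150_a_at within each array, 1438215_at differed by -1.04 ± 0.30 (SE, 95% interval -1.71 to -0.38). That ratio test, which was run over all 9999 such pairs after these values had been seen, gave a limma adjusted p of 0.69. None of the 57 pairs in the SR and hnRNP genes passed it, where 0.0100% of all pairs (1 pair) did, and 8 had an unadjusted p below 0.05 (14.0%, against 6.76%). Pairs of the same gene share its representative probe set, so they are not independent, and Hnrnpu and Hnrnpa2b1 each gave more than 1 of the 8.

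Of these 8 pairs, 5 had a lower ratio in the Nfkbiz livers, a class that held 3.54% of all pairs, and 3 a higher one, which held 3.22%. The lower ratios were in Srsf3, Hnrnpdl, Srsf10 and Hnrnpu, the last with 2 probe sets. In Hnrnpdl, 1424252_at was read at 528, 405 and 300.5 in Nfkbiz livers, against 888, 859 and 444 in luciferase livers, and its ratio to the representative probe set differed by -0.70 ± 0.21 (SE). In Srsf10, 1449121_at was read at 407, 353 and 428 in Nfkbiz livers, against 550.1, 541 and 466 in luciferase livers, a ratio difference of -0.68 ± 0.23 whose groups did not overlap. Of the Hnrnpu probe sets, 1434390_at (103, 115 and 11.6 in Nfkbiz livers, against 180.3, 267 and 114 in luciferase livers) gave -1.82 ± 0.75 and 1434391_at -0.41 ± 0.18. Without the third Nfkbiz array the ratio difference of 1434390_at was -0.78. The groups did not overlap for these 5 ratios, among 10 of the 57 (17.5%, against 12.7% of all pairs). The other 3 pairs had higher ratios, 2 of them in Hnrnpa2b1 (0.38 ± 0.15 for 1433829_a_at, which was 0.25 without the third luciferase array, and 0.31 ± 0.14 for 1434047_x_at) and 1 in Hnrnpl (1.79 ± 0.77, and 1.14 without the third luciferase array), where 1445594_at was read at 141, 66.7 and 65.1 in Nfkbiz livers, against 79.0, 20.1 and 13.6 in luciferase livers. Which exons these probe sets read was not analysed here.

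**Figure D4:**
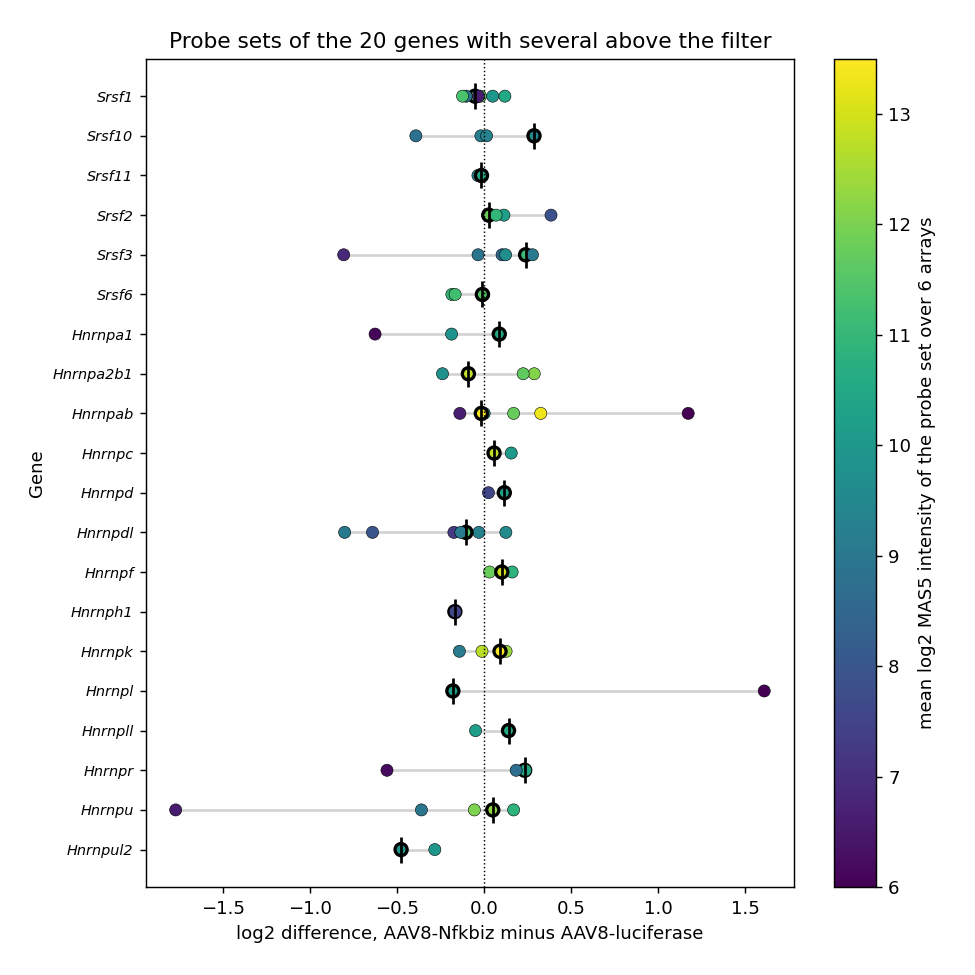
Log2 difference (x axis, AAV8-Nfkbiz minus AAV8-luciferase) of every tested probe set of the 20 genes with more than 1, coloured by mean log2 intensity, with a vertical bar through the representative probe set of each gene. The widest spreads, in Hnrnpu, Hnrnpl, Hnrnpab and Srsf3, each come from 1 probe set that lies far from the rest of its gene, which in Hnrnpl is a single other probe set. Each of these outlying probe sets is the dimmest tested one of its gene. Their lowest arrays read 11.6 (Hnrnpu), 13.6 (Hnrnpl), 7.16 (Hnrnpab) and 73.7 (Srsf3), where the filter on mean intensity lay at 47.4. Without the first luciferase array the ratio difference of the Hnrnpab probe set to its representative was 0.09, against 1.19 with all arrays.

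Other genes of the splicing pathway were read from lists written with earlier results of these data in view. Of 11 genes for SR protein kinases and nuclear import, all tested, none passed, 1 had an unadjusted p below 0.05 (9.09%, against 12.0% of all genes), 8 had negative differences and the median was -0.09. Clk3, a kinase of SR proteins, was read at 426, 480.3 and 376 in Nfkbiz livers, against 570.3, 578 and 509 in luciferase livers, without overlap (-0.37 ± 0.16 SE, limma adjusted p = 0.387). The kinase gene Cdk11b (-0.20 ± 0.13) and the SR protein importer Tnpo3 (-0.18 ± 0.14) followed. Groups were without overlap for Clk3 and Cdk11b, 2 of the 11 genes (18.2%, against 18.0% of all genes).

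SR-related proteins, which carry arginine-serine domains without being classical SR proteins, had negative differences in 19 of 23 genes, with a median of -0.14. None passed the threshold over all genes, and 5 (21.7%) had an unadjusted p below 0.05, all 5 with lower values in Nfkbiz livers, a direction in which 7.00% of all genes had one. Luc7l2, a U1-associated factor, was read at 937, 790.1 and 891 in Nfkbiz livers, against 1479, 1267 and 1114 in luciferase livers (-0.55 ± 0.15 SE, limma adjusted p = 0.195). Son, a nuclear speckle scaffold, was read at 3067, 2440.4 and 2413 in Nfkbiz livers, against 3244, 3565 and 3536 in luciferase livers (-0.39 ± 0.13 SE, limma adjusted p = 0.29). Srrm2, the other speckle scaffold, was read at 2121, 1857 and 1844 in Nfkbiz livers, against 2636, 2328 and 2421 in luciferase livers (-0.34 ± 0.12 SE, limma adjusted p = 0.321). With 1 array left out, the difference of Son ran from -0.51 to -0.33. Over all settings that tested each gene, the difference ran from -0.65 to -0.45 for Luc7l2, -0.51 to -0.06 for Son and -0.72 to -0.29 for Srrm2. The groups did not overlap for 6 of the 23 genes (26.1%, against 18.0% of all genes), these 3 with Scaf11 (-0.37 ± 0.14), Ddx46 (-0.38 ± 0.17) and Thrap3 (-0.13 ± 0.12), the last 3 named after their values were seen.

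The 19 tested hnRNPs that go by other symbols had a median of -0.07, and none reached even an unadjusted p below 0.05. Syncrip, the gene of hnRNP Q, had a difference of -0.23 ± 0.14 (SE), Pcbp2 (hnRNP E2) of -0.15 ± 0.12 and Pcbp3 of -0.42 ± 0.34. Core spliceosome genes had 24 positive and 24 negative differences among 48 tested and a median of -0.0031. None passed, and 8 (16.7%, against 12.0% of all genes) had an unadjusted p below 0.05, 4 in each direction. The groups did not overlap for 15 (31.2%, against 18.0%), 10 with lower and 5 with higher values in Nfkbiz livers. Prpf8, the scaffold at the heart of the spliceosome, was read at 2117, 1946 and 2080 in Nfkbiz livers, against 2649, 2703 and 2606 in luciferase livers (-0.37 ± 0.12 SE, limma adjusted p = 0.245). Snrpe, a ring protein of the snRNP core, was read at 6479, 6135 and 6365 in Nfkbiz livers, against 4862, 4603 and 5715 in luciferase livers (0.33 ± 0.12 SE, limma adjusted p = 0.332). Prpf38a was read at 441, 511 and 459 in Nfkbiz livers, against 343, 376 and 175 in luciferase livers (0.73 ± 0.27 SE, limma adjusted p = 0.326). Its difference ran from 0.39 to 0.94 with 1 array left out and was as low as 0.0022 over the 19 settings that tested it.

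Among 17 other splicing regulators tested, the median was -0.14, none passed and 2 had an unadjusted p below 0.05 (11.8%, against 12.0% of all genes), 1 in each direction. The cold-inducible Cirbp was read at 468, 369 and 391 in Nfkbiz livers, against 216, 229 and 165 in luciferase livers, a difference of 1.01 ± 0.20 (SE, limma adjusted p = 0.105). Rbm47, an RNA-binding protein that also supports mRNA editing of Apob, was read at 1327, 1134 and 1425 in Nfkbiz livers, against 1730.4, 1886 and 1819 in luciferase livers (-0.49 ± 0.13 SE, limma adjusted p = 0.196), and Mbnl3 had a difference of -0.50 ± 0.29. Of 9 tested genes of nonsense-mediated decay and the exon junction complex, 7 had negative differences, with a median of -0.33. None passed, 2 (22.2%, against 12.0% of all genes) had an unadjusted p below 0.05, and the groups did not overlap for 5 (55.6%, against 18.0%), all 5 with lower values in Nfkbiz livers. The decay kinase Smg1 was read at 726, 626 and 798 in Nfkbiz livers, against 896, 949 and 918 in luciferase livers (-0.37 ± 0.14 SE), its partner Smg9 had a difference of -0.43 ± 0.18 and Upf2 of -0.28 ± 0.14.

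Facts of the whole set of arrays bear on these values. The vector showed on Nfkbiz probe set 1448728_a_at, with 4424, 4073 and 2006 in Nfkbiz livers against 221, 229.5 and 179.7 in luciferase livers (log2 difference 3.98 ± 0.27 SE, limma adjusted p = 0.000901), whereas the gene's other probe sets, 1417483_at and 1457404_at, gave 0.30 ± 0.19 and -0.89 ± 0.54. The summed intensities of 7 hepatocyte markers, Alb and Ttr among them, were between 191888 and 230849 in Nfkbiz and between 202818 and 237058 in luciferase livers. Of these 7 markers Tat fell (-1.17 ± 0.16 SE, limma adjusted p = 0.0218), and Hnf4a had a difference of -0.35 ± 0.14 (limma adjusted p = 0.363). The 10 macrophage and Kupffer cell markers summed to between 38125 and 49925 in Nfkbiz and between 26327 and 37332 in luciferase livers, without overlap, and 8 of the 10 had an unadjusted p below 0.05 with higher values in Nfkbiz livers, against 5.03% of all genes. T and NK cell markers, 7 on the array, summed to between 864 and 1519 in Nfkbiz and between 698 and 769 in luciferase livers. Much of the gap between these sums lay in Gzma, which rose (1.77 ± 0.28 SE, limma adjusted p = 0.0427). Gzma was read at 496, 321 and 251 in Nfkbiz livers, against 109, 112 and 82.9 in luciferase livers. Of the 6 markers tested, 4 had positive differences, and Cd3e (-0.67 ± 0.83) and Cd8a (-0.09 ± 0.32) had negative ones. Sums of the endothelial, stellate, cholangiocyte, neutrophil, B cell, erythroid and cycling cell markers overlapped between the groups, the endothelial sum being lowest, at 3867, on the third luciferase array. Within those lists none passed, and all 6 stellate markers had negative differences (Col1a1 -0.56 ± 0.21 and Reln -0.53 ± 0.22 at an unadjusted p below 0.05). At an unadjusted p below 0.05, Epcam and Mcm2 were lower and S100a8, S100a9, Cd79b and Clec4g higher in Nfkbiz livers. Differences were positive for 3 of 4 neutrophil, 4 of 4 B cell, 5 of 6 endothelial, 1 of 3 cholangiocyte and 5 of 7 cycling cell markers. Against the named markers of their lists went Csf3r (-0.48 ± 0.35), Stab1 (-0.20 ± 0.25), Sox9 (0.05 ± 0.25) and, among the positive cycling cell markers, Birc5 (0.66 ± 0.39) and Cdk1 (0.51 ± 0.32). The part of these cell types in the differences of the splicing factor genes was not tested. In whole tissue a change in the number of cells of a type and a change in RNA per cell cannot be told apart.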

How the data were processed

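The authors deposited MAS5 signal intensity values on a linear scale for 6 arrays, 1 per liver sample. MAS5 is named per the submitters' processing notes, which give no version. Per the labels' protocols, 100 ng of total RNA was labelled. Trimmed means were between 495.4 and 496.5 on all arrays and median intensities between 78.2 and 95.2, and the number of arrays limits the precision. Probe sets were named from GEO's platform annotation. All 29 genes were found by Entrez ID in a RefSeq gene table of GRCm38.p6, with 0 symbols changed, and the promoter sequences are RefSeq's of that build.

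Intensities were log2-transformed with no pseudocount. A gene was read from its brightest probe set by mean log2 value, and the lowest 40% of probe sets (mean intensity below 47.4) were left out. Differences were fitted with limma 3.58.1 in R 4.3.3 (lmFit, eBayes with an intensity trend, two-sided, Benjamini-Hochberg adjustment over all features tested), a procedure tested on simulated data. Python 3.11.15 with matplotlib 3.10.9 drew the figures. The labels number the samples without saying that each came from its own mouse, so a p-value reflects only the spread between the samples. Values on every array are given for up to 6 genes per direction with the smallest unadjusted p and for the 6 with the highest mean, and up to 3 genes of each pathway list are named. Other genes and probe sets given in full were picked after their values were seen, as was the test of ratios within genes. The members and lists were chosen with earlier results of these data known. Alternatives changed the filter, the normalization, the pseudocount, the variance prior, array weights, the probe set per gene and the arrays used, or added the replicate number as a block.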

Additional observations from a re-analysis of the deposited data

How the results depend on the processing

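None of the 28 SR and hnRNP genes and none of their probe sets passed limma's adjusted threshold in any of the 20 settings run. Between 1 and 4 of the genes had an unadjusted p below 0.05, with 2 as reported (7.14%, against 12.0% of all genes). Shares of all genes at that cut were not counted in the other settings. Srsf4 kept its direction and its unadjusted p below 0.05 in all 20. Over all genes, limma's calls numbered 30 as reported, 0 with no intensity trend, 62 with array weights, 10 with the most variable probe set of each gene, 13 with the mean of probe sets, and 9 to 21 with 1 array left out. Over all probe sets they numbered 19 as reported, 46 with the lowest 60% left out, 30 with log2(value + 16), 0 with no intensity trend, 77 with array weights, and 8 to 33 with 1 array left out. The median of the hnRNP genes was 0.05 as reported, -0.15 with the most variable probe set, -0.048 with the brightest plain probe set, and -0.050 to 0.026 with 1 array left out. That of the SR protein genes was 0.03 as reported and -0.053 to 0.12 with 1 array left out. Among the settings that left out 1 array, both medians were lowest without the third luciferase array.

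Outside the settings that left out 1 array, 22 differences of the named genes changed sign and 437 did not. Most of the changes of sign came with the choice of probe set. With the most variable one, the log2 difference was -0.80 for Srsf3, 1.61 for Hnrnpl, -0.14 for Hnrnpk, 1.17 for Hnrnpab, -1.77 for Hnrnpu, 0.15 for Syncrip and 0.73 for Mbnl3. With the mean of probe sets it was -0.015 for Srsf3, -0.067 for Hnrnpr, -0.026 for Srsf10, 0.72 for Hnrnpl, 0.22 for Hnrnpab, 0.047 for Hnrnpa2b1, -0.39 for Hnrnpu, 0.11 for Syncrip, 0.47 for Rbm47 and 0.12 for Smg1. With the brightest plain probe set it was -0.56 for Hnrnpr, -0.048 for Hnrnpll and 0.33 for Hnrnpab. Hnrnpab was at 0.019 with median centring and 0.018 with array weights. With 1 array left out, the difference ran from -0.067 to 0.45 for Srsf5, -0.061 to 0.28 for Hnrnpll, -0.051 to 0.031 for Hnrnpab and -0.042 to 0.11 for Hnrnpu. With the most variable probe set, the values of Srsf3, Hnrnpl, Hnrnpab and Hnrnpu were those of 1438215_at, 1445594_at, 1431349_at and 1434390_at. These were the dimmest tested probe sets of their genes. Why probe sets of 1 gene differed was not tested, nor was the cause of the other changes of sign.

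With the replicate number as a block, 27 genes and 28 probe sets were called, 0 of them SR or hnRNP genes, and the medians were 0.03 for SR protein genes and 0.05 for hnRNP genes. The numbers were not taken as pairs, since the labels do not say that they pair animals. Deviations of same-numbered arrays from their group means correlated at -0.06, 0.07 and -0.03 across genes. Those of differently numbered arrays correlated at -0.12 to 0.15. Deviations from a mean of 3 arrays are tied to each other, so these correlations cannot exclude pairing. With 3 arrays per group, the 95% intervals set the size of difference that could be seen.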
